A study of Mus musculus with 8 samples.

Results

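Neurofilaments are the main intermediate filaments of axons, and the genes described here code for their subunits: Nefl (light), Nefm (medium), Nefh (heavy) and Ina (alpha-internexin), with Prph (peripherin), a related filament protein. The 5 genes were named by symbol, and 4 of them, Nefl, Nefm, Nefh and Prph, were found in all 3 expression tables, which share 15382 genes. Ina was not analysed here. They were selected on their FPKM levels in the 4 groups and on the log2 ratios between them, so levels, differences and calls are given as a description.

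RNA was sequenced from cultured mouse hippocampal neurons at 14 days in vitro, in 8 samples that form 4 groups of 2. Every group was transduced at 9 days with an adeno-associated virus (AAV2/9) whose gene is driven by the SynI promoter, a neuronal promoter, and received Accell siRNA for 4 days from day 10. In the cytoplasmic rescue the virus carried Flag-Rbfox1_C_siMt and the siRNAs targeted Rbfox1 and Rbfox3, in the nuclear rescue it carried Flag-Rbfox1_N_siMt with the same siRNAs, in the knockdown it carried EGFP with those siRNAs, and in the control it carried EGFP with non-targeting siRNAs. The authors deposited 1 FPKM value per group (fragments per kilobase of transcript, scaled to the mapped fragments of a library), so no spread between samples can be given, and depth per sample is unknown. Nothing in the labels says that both samples of a group were grown separately, so the variation behind the authors' test may be technical.

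Filaments of the central nervous system are assembled from the light subunit together with the medium and heavy subunits and alpha-internexin. The long tails of the medium and heavy subunits are phosphorylated and extend from the filament core, and neurofilament content is known to accompany axon calibre. Peripherin is known mainly from neurons of the peripheral nervous system and from motor neurons. Rbfox proteins are neuronal RNA-binding proteins that recognise UGCAUG in RNA. Nuclear Rbfox1 is known as a splicing regulator, and cytoplasmic Rbfox1 as a protein that binds 3′ untranslated regions.

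Because Rbfox proteins recognise that motif, the 3′ untranslated regions of the 4 genes were searched for TGCATG, the same letters as DNA, on the transcript strand only. In a single transcript per gene, Nefm held 3 copies in 754 bases, Nefl 2 copies in 1648 bases, Prph 1 copy in 307 bases and Nefh 0 copies in 591 bases. No copies overlapped, and none lay elsewhere in these transcripts. At least 1 copy was present in 29.6% of all annotated 3′ untranslated regions. Among regions within 10% of the Nefm length, 23.8% held the motif and 0.324% held at least as many copies as Nefm. The corresponding shares of regions with the motif were 42.6% at the Nefl length, 14.9% at the Nefh length and 8.73% at the Prph length, and 13.0% of regions near the Nefl length held at least as many copies as Nefl. The 6 matches are shown because the groups differ in Rbfox1 and Rbfox3. They are written 5′ to 3′ on the transcript strand with the motif in capitals, from GENCODE transcripts on GRCm38. A match is a run of letters, and its binding was not measured here.
Nefm, first match, chr14:68119973-68120002, minus strand: acaatttcaaaaTGCATGtgattgacagct
Nefm, middle match, chr14:68119886-68119915, minus strand: atatgagggaacTGCATGcaagctcagggt
Nefm, last match, chr14:68119835-68119864, minus strand: ggggaattcaaaTGCATGatcgtgtatgta
Nefl, first match, chr14:68087655-68087684, plus strand: gctgccagcctgTGCATGgtccatgcttat
Nefl, last match, chr14:68088546-68088575, plus strand: ttggtattgctcTGCATGtcttaattggta
Prph, only match, chr15:99058743-99058772, plus strand: ccagtcctgctcTGCATGccacagcccctg

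The 3 Nefm copies began 47, 134 and 185 bases after the stop codon, so they all lie in the first part of its 3′ untranslated region. Those of Nefl began 220 and 1111 bases after the stop codon, and that of Prph 85 bases after it.

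Both targeted genes were lower in the knockdown. Rbfox1 was at 1.94 FPKM in the knockdown, against 25.7 FPKM in control, and Rbfox3 at 1.59 FPKM in the knockdown against 12.4 FPKM in control. Rbfox1 was at 16.1 FPKM in the cytoplasmic and 38.2 FPKM in the nuclear rescue, so isoform and amount differ together between the rescues. Rbfox3 stayed low in both, at 1.59 FPKM in the cytoplasmic and 1.53 FPKM in the nuclear rescue. Rbfox2, which recognises the same motif and was not targeted, was at 33.2 FPKM in the cytoplasmic rescue, 17.7 FPKM in the nuclear rescue, 42.1 FPKM in the knockdown and 35.4 FPKM in control, so the rescues differed in it too. Pan-neuronal markers, which fit the label of neurons, summed over 18 genes to 3351 FPKM in the cytoplasmic rescue, 3497 FPKM in the knockdown and 3370 FPKM in control. In the nuclear rescue 17 of them had a value, without Celf4, and summed to 3452 FPKM. Astrocyte markers were present too, and summed to between 1437 and 1592 FPKM over 10 genes, and none of them was below 1 FPKM in any group.

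Nefl was by far the most abundant member. FPKM is scaled to transcript length, so levels of different genes can be set side by side as far as the authors' transcript models hold. Nefl stood at 587 FPKM in the cytoplasmic rescue, 533 in the nuclear rescue, 501 in the knockdown and 620 in control. Among the 15382 shared genes its rank from the top was 107 in the knockdown and 75 in control. Nefm stood at 12.1, 12.6 and 8.02 FPKM in the cytoplasmic rescue, the nuclear rescue and the knockdown, and at 13.8 FPKM in control. Nefh stood at 7.27 FPKM in the cytoplasmic rescue, 7.11 in the nuclear rescue, 4.69 in the knockdown and 6.84 in control. Prph was the lowest, at 3.72, 4.37 and 3.62 FPKM in the cytoplasmic rescue, the nuclear rescue and the knockdown, against 1.68 FPKM in control. The 3 neurofilament genes were thus lowest in the knockdown, whereas Prph was lowest in control. The order Nefl, Nefm, Nefh, Prph was the same in every group.

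**Figure D1:**
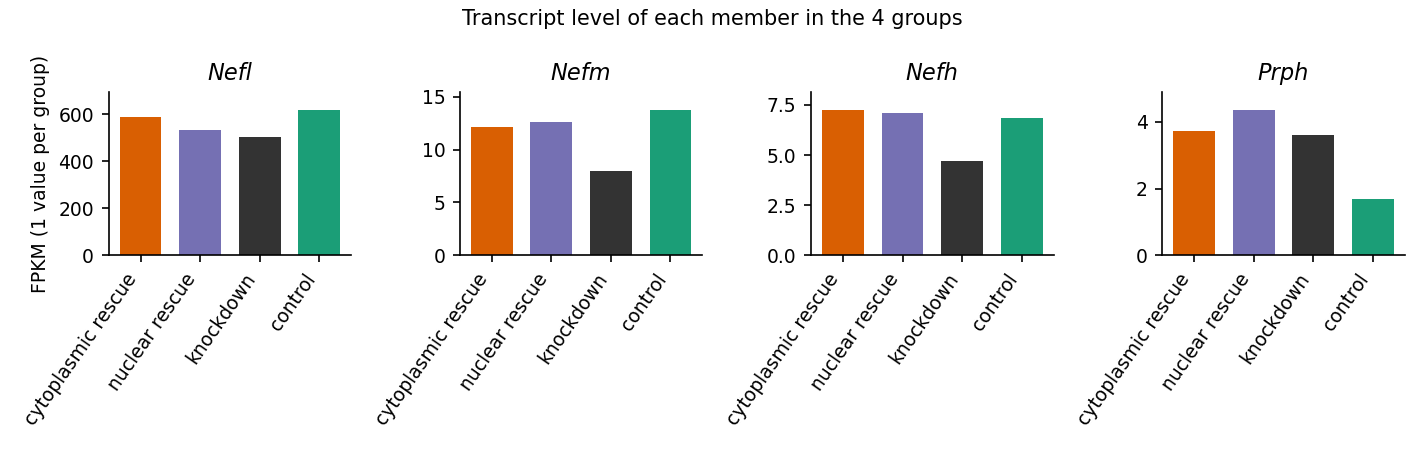
FPKM of Nefl, Nefm, Nefh and Prph (vertical axes, a scale for each gene) in the cytoplasmic rescue, the nuclear rescue, the knockdown and control, with 1 bar for the authors' single value per group and no error. The neurofilament bars are lowest in the knockdown (Nefm 8.02 FPKM against 13.8 FPKM in control), and the Prph bar is lowest in control at 1.68 FPKM.

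By FPKM, the medium and heavy subunits made up a small share of the neurofilament messages. Nefm and Nefh each share a locus with another gene, as described below. The effect of this on the shares and ratios given here was not tested. Of the summed FPKM of Nefl, Nefm and Nefh, Nefl took 96.8% in the cytoplasmic rescue, 96.4% in the nuclear rescue, 97.5% in the knockdown and 96.8% in control. Nefm took 1.996%, 2.29% and 1.56% in the cytoplasmic rescue, the nuclear rescue and the knockdown, and 2.15% in control. The level of Nefl was 62.5 times that of Nefm in the knockdown and 45.0 times in control, and it was 48.5 times in the cytoplasmic and 42.2 times in the nuclear rescue. The ratio of Nefl to Nefm was therefore widest in the knockdown. For Nefm against Nefh the ratio was 1.67, 1.78 and 1.71 in the cytoplasmic rescue, the nuclear rescue and the knockdown and 2.02 in control. The level of Nefm was 2.22 times that of Prph in the knockdown and 8.21 times in control, the widest shift between any pair of members given here.

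Nefm was lower and Prph higher in the knockdown than in control. A gene was called when the authors' q, a p-value adjusted by them over many genes, was below 0.05. By that rule 2 of the 4 members were called, 1 lower and 1 higher. Among all 15598 genes tested 2.35% were called, 1.58% lower and 0.776% higher, and since the members were chosen with this comparison known, nothing is read from the count. At an unadjusted p below 0.05 the same 2 members passed, where 10.9% of all genes did and 5.44% did with a higher level. Dividing the size of a gene's log2 fold change by that of the authors' test statistic gives the error their test assigns to it, written here after ± and named the implied error.

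Nefm codes for the medium subunit, whose tail carries many phosphorylation sites. It was at 8.02 FPKM in the knockdown, 58.2% of the 13.8 FPKM in control. The authors' deposited table gives a log2 fold change of -0.78 ± 0.175 and q = 0.00171. Prph was at 3.62 FPKM in the knockdown, 215% of the 1.68 FPKM in control. For it the authors' deposited table gives a log2 fold change of 1.11 ± 0.222 and q = 2.01e-04. The Nefm difference was 4.47 times its implied error and that of Prph 4.997 times. In bulk RNA, a change in the number of cells that express a gene and a change in the RNA per cell cannot be told apart.

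Nefh and Nefl were lower in the knockdown without being called. Nefh, the subunit with the longest tail, was at 4.69 FPKM in the knockdown and 6.84 FPKM in control. The authors' deposited table gives it a log2 fold change of -0.54 ± 0.310 and q = 0.947. Nefl was at 501 FPKM in the knockdown and 620 FPKM in control, and the authors' deposited table lists a log2 fold change of -0.31 ± 0.229 and q = 0.999995. These differences were 1.75 and 1.34 times their implied errors. All 3 neurofilament subunit genes were thus below control, with a median log2 fold change of -0.54, and Prph was above it. The median over the 4 members was -0.42, and over the 12521 genes with at least 1 FPKM in either group it was 0.03. In size, the Nefm change exceeded that of 98.4% of those genes and the Prph change that of 99.5%.

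**Figure D2:**
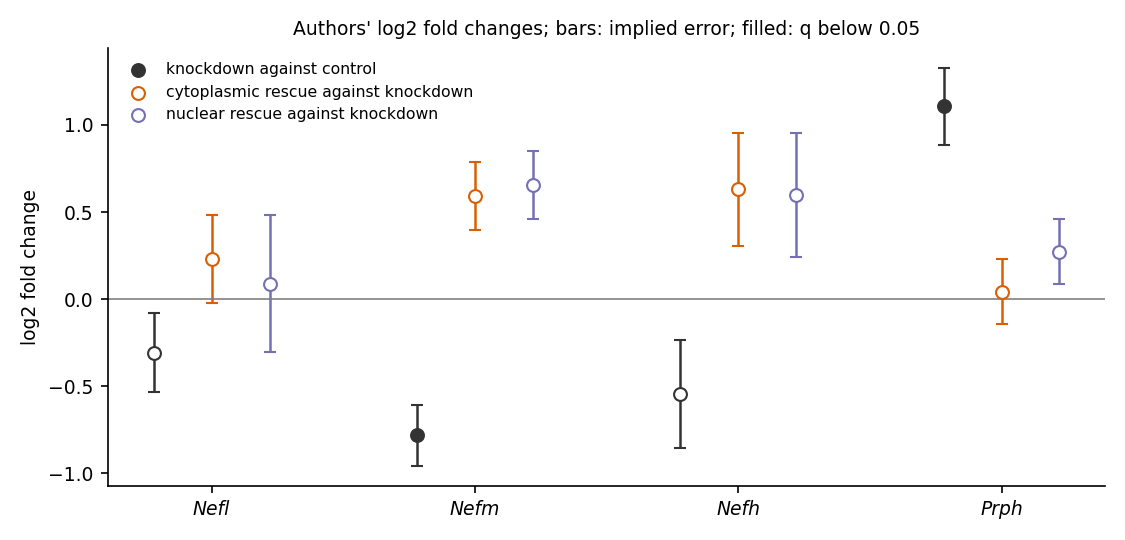
Log2 fold changes from the authors' deposited tables (vertical axis) for Nefl, Nefm, Nefh and Prph in the knockdown against control, the cytoplasmic rescue against knockdown and the nuclear rescue against knockdown. Bars are the implied error in each direction and filled points have q below 0.05. The filled points are Nefm at -0.78 and Prph at 1.11, both in the knockdown, and all 8 rescue points are open and above 0.

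The cytoplasmic isoform of Rbfox1 left 0 of the 4 members called, by the authors' Cufflinks test, where 0.506% of 15598 genes were called, 0.333% higher and 0.173% lower. At an unadjusted p below 0.05 there was 1 member, Nefm, which was higher. Of all genes 5.33% passed that threshold and 1.87% did so with a higher level. Nefm was at 12.1 FPKM in the cytoplasmic rescue and 8.02 FPKM in the knockdown, and the authors' deposited table gives a log2 fold change of 0.59 ± 0.195 and q = 0.139. Nefh was at 7.27 FPKM in the cytoplasmic rescue against 4.69 FPKM in the knockdown, and the authors' deposited table puts the log2 fold change at 0.63 ± 0.323 and q = 0.796. Nefl measured 587 FPKM in the cytoplasmic rescue and 501 FPKM in the knockdown, and the authors' deposited table puts the log2 fold change at 0.23 ± 0.253. For Prph, at 3.72 FPKM in the cytoplasmic rescue and 3.62 FPKM in the knockdown, that difference was 0.04 ± 0.185 in the authors' deposited table. The neurofilament genes therefore all lay above the knockdown without passing, while Prph lay almost level with it. The median log2 fold change of the 4 members was 0.41, and that of 12443 genes with at least 1 FPKM was -0.06.

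With the nuclear isoform, too, 0 of the 4 members were called by the authors' Cufflinks test, where 0.11% of 15489 genes were, 0.071% higher and 0.0387% lower. Nefm, higher, was again the 1 member with an unadjusted p below 0.05. That threshold was passed by 1.05% of all genes, and by 0.562% with a higher level. Nefm was at 12.6 FPKM in the nuclear rescue and 8.02 FPKM in the knockdown, and the authors' deposited table gives a log2 fold change of 0.66 ± 0.196 and q = 0.0657. Nefh was at 7.11 FPKM in the nuclear rescue and 4.69 FPKM in the knockdown, and the authors' deposited table puts the log2 fold change at 0.60 ± 0.357. Nefl was at 533 FPKM in the nuclear rescue and 501 FPKM in the knockdown, and the authors' deposited table puts the log2 fold change at 0.09 ± 0.392. Prph was at 4.37 FPKM in the nuclear rescue and 3.62 FPKM in the knockdown, and the authors' deposited table lists a log2 fold change of 0.27 ± 0.186. Both heavier subunits were about as high with the nuclear as with the cytoplasmic isoform. The members' median was 0.44 here, against -0.01 for 12438 genes with at least 1 FPKM.

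**Figure D3:**
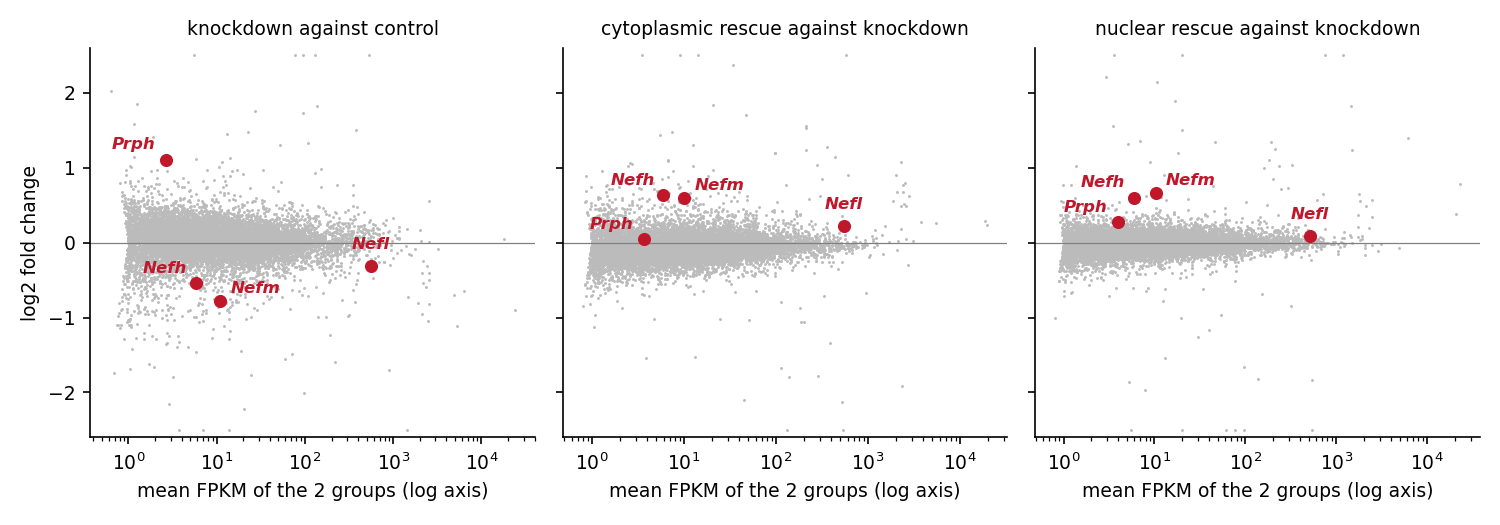
Log2 fold change (vertical axis) against the mean FPKM of the 2 groups (horizontal log axis) for every gene with at least 1 FPKM in a group (grey) and for the 4 members (red, named), in the knockdown against control and in each rescue against knockdown. Changes beyond 2.5 are drawn at the edge. In the knockdown Nefm lies at -0.78 and Prph at 1.11, at the margins of the grey cloud.

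All 3 comparisons use the same knockdown values, so a low knockdown value alone places a gene below control and below both rescues, and opposite signs between them carry no independent weight. Set against control instead, Nefm reached 87.8% in the cytoplasmic and 91.7% in the nuclear rescue, with 58.2% in the knockdown. Nefh reached 106% and 104% of control in the cytoplasmic and nuclear rescue, with 68.7% in the knockdown. Nefl was at 94.7%, 86.0% and 80.8% of control in the cytoplasmic rescue, the nuclear rescue and the knockdown. Prph stayed above control throughout, at 222% in the cytoplasmic rescue, 260% in the nuclear rescue and 215% in the knockdown. No table compares the rescues with control, so these percentages have no error. They place Nefm and Nefh near the control level in both rescues. Prph lay at over 2 times the control level in every group with the Rbfox1 and Rbfox3 siRNAs. All 3 Prph percentages divide by the same control value of 1.68 FPKM. A low control value alone would raise them together, so they are not independent of each other.

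Nefm and Nefh had close levels in both rescues. On the log2 scale the cytoplasmic minus nuclear difference was -0.06 for Nefm and 0.03 for Nefh. It was 0.14 for Nefl and -0.23 for Prph. For Nefl, Nefm and Nefh this difference was smaller than the implied error of either rescue against the knockdown. For Prph it was larger than both of its implied errors, 0.185 in the cytoplasmic and 0.186 in the nuclear comparison. These errors belong to comparisons with the knockdown and do not measure the difference between the rescues. That difference was not tested, because the authors' tests do not compare the rescues with each other.

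Nefm shares its place in the genome with another transcript. The authors' locus of Nefm (mm9 chromosome 14, 68737602 to 68749428) is also that of A230070E04Rik, annotated in RefSeq as lncRNA, and on GRCm38 the spans of these genes overlap by 1253 bases. The libraries do not record strand, so reads from the overlap cannot be assigned by direction. A230070E04Rik was at 18.9, 18.6 and 14.3 FPKM in the cytoplasmic rescue, the nuclear rescue and the knockdown, against 20.04 FPKM in control. The authors' deposited table gives it a log2 fold change of -0.49 ± 0.187 and q = 0.326 in the knockdown. Like Nefm it was lowest in the knockdown and highest in control, and its level was above that of Nefm in every group. How far reads of either gene count for the other was not tested.

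**Figure D4:**
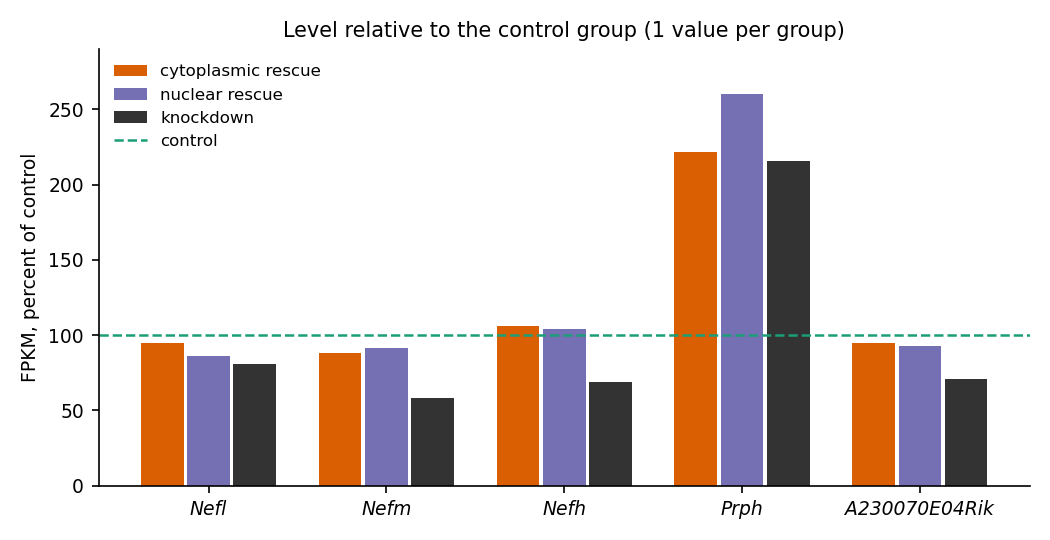
FPKM as a percentage of the control group (vertical axis, dashed line at the control level) for Nefl, Nefm, Nefh, Prph and A230070E04Rik, in the cytoplasmic rescue, the nuclear rescue and the knockdown, with 1 value per group and no error. Nefm stands at 87.8%, 91.7% and 58.2%, the overlapping A230070E04Rik at 94.5%, 92.8% and 71.2%, and Prph at 222%, 260% and 215%.

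Nefl (mm9 chromosome 14, 68701941 to 68705794) and Prph (chromosome 15, 98885605 to 98889409) have loci of their own in the tables. The locus given for Nefh (chromosome 11, 4838759 to 4942797) covers 104039 bases, far more than its RefSeq span of 9311 bases, and is shared with Ap1b1, a clathrin adaptor subunit gene. Ap1b1 was at 23.0 FPKM in the knockdown and 25.02 FPKM in control, and the authors' deposited table puts the log2 fold change at -0.12 ± 0.144.

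Genes with the most similar pattern were sought by the distance between log2(FPKM + 1) values, each centred over the 4 groups, among 8653 other genes with a mean of at least 5 FPKM (8654 for Prph, whose own mean is lower). With 4 points per gene such likeness is a description. Nearest to Nefm were Snora78, the potassium channel gene Kcnq3 and Scarna6, at distances of 0.114, 0.173 and 0.174, where the median gene was at 0.582. Kcnq3 measured 12.7, 11.8 and 9.02 FPKM in the cytoplasmic rescue, the nuclear rescue and the knockdown, against 14.2 FPKM in control, values close to those of Nefm. Nearest to Nefh were Scarna6 and Snord15b, small RNA genes, and A230070E04Rik (0.0334, 0.124 and 0.152). Nearest to Prph were the kinase gene Lats2, Snora28 and the adhesion gene Amigo2 (0.0986, 0.132 and 0.160), with Lats2 at 29.9 FPKM in the knockdown and 18.1 FPKM in control. Nearest to Nefl were Actr1b, Tspyl5 and Bok, at 0.0119, 0.0298 and 0.0307, while Nefl itself was only 0.238 from a flat pattern.

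A list of other intermediate filament genes held no call by the authors' test in any comparison. Of all genes 2.35% were called in the knockdown, 0.506% in the cytoplasmic rescue and 0.11% in the nuclear rescue. Of 11 tested (Vim, Gfap, Nes, the lamins and others) 0 were called in the knockdown by the authors' test and 2, Nes and Lmnb1, had an unadjusted p below 0.05. Of all genes 10.9% had such a p, 5.44% with a higher level. All 11 lay above 0, with a median log2 fold change of 0.09, and 3 were below 1 FPKM in the knockdown and control. The differences of Vim (0.02 ± 0.200) and Gfap (0.002 ± 0.305) were far smaller than their implied errors, so nothing is read from the shared sign. Vim, the filament of glia and mesenchymal cells, was at 398 FPKM in the knockdown and 393 FPKM in control, and Gfap, the astrocyte filament, at 570 FPKM in the knockdown and 569 FPKM in control. Keratins, filaments of epithelia, were mostly at low levels. Of 12 tested in the knockdown 1 was called, where 2.35% of all genes were. It was Krt75, at 0.495 FPKM in the knockdown and 1.59 FPKM in control. Krt75 was also called in the cytoplasmic rescue, where it was at 0.917 FPKM, against 0.495 FPKM in the knockdown.

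Among genes for proteins that work on neurofilaments, Mapk3 and Hspb1 were called in the knockdown, where 2.35% of all genes were. The share called was 0.506% in the cytoplasmic and 0.11% in the nuclear rescue. An unadjusted p below 0.05 was reached by 10.9% of all genes in the knockdown, 5.33% in the cytoplasmic and 1.05% in the nuclear rescue. Cross-linkers and membrane skeleton genes (spectrins, ankyrins, Dst, Macf1, Plec, band 4.1 genes) had 0 of 11 called in each of the 3 comparisons, and at an unadjusted p below 0.05 they had 0, 0 and 1, the 1 being Plec in the nuclear rescue. The spectrin gene Spna2 measured 268 FPKM in the knockdown and 265 FPKM in control. Kinases and phosphatases that act on neurofilament tails had 1 of 21 called in the knockdown, Mapk3 (ERK1), at 22.6 FPKM in the knockdown and 16.2 FPKM in control, with a log2 fold change of 0.48 and q = 0.0327 in the authors' deposited table. Axonal transport genes had 0 of 10 called and 1 with an unadjusted p below 0.05, the kinesin light chain gene Klc2. The kinesin gene Kif5a, whose motor is known to carry neurofilaments, measured 108 FPKM in the knockdown and 114 FPKM in control. Turnover and chaperone genes had 1 of 12 called, the small heat shock protein gene Hspb1, at 1.36 FPKM in the knockdown and 2.66 FPKM in control. Genes for proteins that bind neurofilament messages had 0 of 8 called and 1 with an unadjusted p below 0.05, Rgnef, at 4.92 FPKM in the knockdown and 3.64 FPKM in control. In the rescues 0 genes of the last 4 lists were called.

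No exon of a member appears in the authors' tables of changed cassette exons, which list 214 exons for the knockdown, 150 for the cytoplasmic and 318 for the nuclear rescue. Filament linkers held 5, 1 and 4 of these exons. The Epb4.1l3 exon (mm9 chromosome 17, 69636952 to 69637068) had a deposited inclusion fraction of 0.607 in the knockdown and 0.731 in control, and 0.752 in the cytoplasmic rescue. Summed over its flanking junctions it had 380 inclusion and 157 skipping reads in the knockdown, against 402 inclusion and 99 skipping reads in control. In the nuclear rescue an exon of Dst, a large linker of filaments to other cytoskeletal parts (chromosome 1, 34353587 to 34353604), had a fraction of 0.743, against 0.957 in the knockdown. An exon of Ank3, the ankyrin of the axon initial segment (chromosome 10, 69456293 to 69456510), was at 0.454 in the nuclear rescue and 0.271 in the knockdown. By the deposited fraction, 2 linker exons were more and 3 less included in the knockdown than in control. The Plec exon (chromosome 15, 76024396 to 76024431) was at 0.270 in the knockdown and 0.374 in control, and a Dst exon (chromosome 1, 34358706 to 34358777) at 0.496 in the knockdown and 0.606 in control. Higher inclusion was listed for another Dst exon (chromosome 1, 34356566 to 34356683), at 0.900 in the knockdown and 0.785 in control. Its skipping reads were few, 2 in the knockdown and 5 in control. An Epb4.1l1 exon (chromosome 2, 156264321 to 156264369) was also listed as higher, at 0.725 in the knockdown and 0.593 in control. Its junctions held 436 inclusion and 29 skipping reads in the knockdown, against 280 inclusion and 16 skipping reads in control. These reads by themselves do not show higher inclusion in the knockdown. These are fractions the authors selected as changed, and unchanged exons were not analysed here.

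Markers of neurons in which peripherin is usually found were low. Of 19 such genes 7 were tested, and the other 12 were not analysed here. Their summed level was 3.21, 2.99 and 3.07 FPKM in the cytoplasmic rescue, the nuclear rescue and the knockdown, against 4.72 FPKM in control, and 6 of the 7 were below 1 FPKM in every group. Those called in the knockdown were Dbh, at 0.236 FPKM in the knockdown against 0.772 FPKM in control, and Avil, at 0.216 FPKM in the knockdown against 0.470 FPKM in control. In the knockdown, where Prph was higher, 5 of the 7 markers lay below control and 2 above it, and their part in the Prph difference was not tested. In the knockdown, where 2.35% of all genes were called, axon injury genes had 2 of 12 called, both lower. They were Ecel1, at 1.96 FPKM in the knockdown and 3.6004 FPKM in control, and the neuropeptide gene Vip, at 6.94 FPKM in the knockdown and 11.7 FPKM in control. In each rescue 0 axon injury genes were called, where 0.506% of all genes were in the cytoplasmic and 0.11% in the nuclear rescue. Atf3, a transcription factor gene induced in injured axons, measured 4.17 FPKM in the knockdown and 4.12 FPKM in control. Cajal-Retzius markers had 1 of 5 called, Calb2, at 171 FPKM in the knockdown and 90.1 FPKM in control, with Reln at 26.1 FPKM in the knockdown and 28.8 FPKM in control.

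Other cell classes moved as follows in the knockdown, beside the Nefm and Prph differences, and their part in those was not tested. Of all genes tested in the knockdown 2.35% were called, and 10.9% had an unadjusted p below 0.05, 5.44% with a higher level. The list named pan-neuronal had 1 of 18 called, Dcx, higher at 14.8 FPKM in the knockdown against 9.31 FPKM in control. This list also held Dcx, Gap43, Syp and Nrgn, which the plan for neuron markers did not name. The Dcx call is therefore not read as a change of neurons in general. Their median log2 fold change was 0.05, but single markers moved in both directions. At an unadjusted p below 0.05 by the authors' test, 3 were higher, Dcx, Nrgn and Tubb3, and 1 was lower. The lower marker was Snap25, at 323 FPKM in the knockdown and 456 FPKM in control. Interneuron markers had 5 of 11 called, Calb2 higher and Gad2, Vip, Npy and Cck lower. They summed to 470 FPKM in the knockdown and 611 FPKM in control. Vip is also in the axon injury list and Calb2 in the Cajal-Retzius list, so the calls of these lists overlap. Among oligodendrocyte lineage markers, the myelin genes Mbp and Mag were called higher and Gpr17, a receptor gene of precursor cells, was called lower. Microglia markers had 3 of 9 called, all lower (C1qa, C1qc and Csf1r), with sums of 16.3 FPKM in the knockdown and 25.2 FPKM in control. Vascular and fibroblast markers had 0 of 7 called and 4 with an unadjusted p below 0.05 (Kdr, Col1a1, Col1a2 and Lum), all higher, with sums of 49.1 FPKM in the knockdown and 38.7 FPKM in control. Astrocyte markers had 0 of 10 called and 0 with an unadjusted p below 0.05, with sums of 1592 FPKM in the knockdown and 1589 FPKM in control. In the rescues these 6 lists held 2 calls in all, Npy higher and Kdr lower in the cytoplasmic rescue. The Cajal-Retzius list held none by the same test. Of all genes 0.506% were called in the cytoplasmic rescue and 0.11% in the nuclear rescue.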

How the data were processed

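The submitters' processing notes name CASAVA, Cufflinks and build mm9, without versions. The authors deposited 1 FPKM value for each group of 2 libraries, with a log2 fold change, a test statistic, a p-value and a q-value per gene. Splicing tables, made with SpliceTrap per the file names, hold deposited inclusion fractions and junction read counts of exons that the authors called. Another 54 value columns were not used.

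Log2 changes recomputed from FPKM differed from the deposited ones by at most 2.50e-04, and all tables hold the same knockdown FPKM. The statistic has the opposite sign to the fold change, so sizes were divided to give the implied error. Locus starts count from 0 (3569 spans then equal the RefSeq length, and 316 otherwise) and are printed from 1. No test over samples could be run on group values, so the planned test is the authors' q below 0.05. The calculations were checked on simulated data.

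The members, the 15 gene lists and the keratins were chosen with earlier results of these data known. Keratins were the symbols made of Krt and a number, with or without a final a or b. Named from a list were the genes called in any table and the 3 of highest mean FPKM, of which the text gives a part, while Nes, Lmnb1, Plec, Klc2, Rgnef, Atf3 and the vascular genes were named after their values were seen. The count and sum of the oligodendrocyte lineage list are not reported here. Older symbols were matched through RefSeq synonyms. The 3′ untranslated regions came from GENCODE M21 on GRCm38, from the transcript with the longest coding sequence per gene. Python 3.11.15, pandas 2.3.3 and numpy 2.4.6 were used.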

Additional observations from a re-analysis of the deposited data

How the results depend on the processing

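In all 88 alternatives were computed for 19 results, and 87 stayed within the implied error or the same count. The alternatives were q below 0.01, q recomputed within a table, a minimum of 1 FPKM, an added minimum size of 0.5 in log2(FPKM + 1), added pseudocounts of 1 or 0.1, and centring on all genes or on pan-neuronal markers. Not all of these alternatives could move a result. Every member exceeded 1 FPKM, so that minimum left the log2 values of the members unchanged. For the rescues, a stricter q or an added minimum size could only keep the count of 0. The calls of Nefm and Prph in the knockdown stood under every alternative for calls, with 2 members called each time, and each rescue had 0. The exception was Prph in the knockdown, whose log2 difference was 0.79 with a pseudocount of 1 in place of 1.11, because that pseudocount is large beside its 1.68 FPKM in control. No value changed sign. No paired analysis was possible because the tables hold 1 value per group, and for the same reason leaving out a replicate was not run. Implied errors rest on the authors' test and do not measure the spread between samples, and the depth behind each FPKM is unknown.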
